A study of Caenorhabditis elegans with 6 samples.

Results

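The vacuolar proton pump and the lysosomal enzymes that work in the acid it makes were set beside each other in anchor cells and whole-body cells of Caenorhabditis elegans. Genes were taken by symbol: every vha-, asp-, cpr- and lmp- gene, together with unc-32, spe-5, cpl-1, cpz-1, cup-5 and scav-3. This gave 52 of 46748 gene rows, of which 21 encode pump subunits, 27 proteases and 4 lysosomal membrane proteins. The vha-, unc-32 and spe-5 genes form the pump group, the asp- genes are aspartic proteases, and the cpr- genes with cpl-1 and cpz-1 are cysteine proteases. RNA was sequenced from 3 libraries of anchor cells, the uterine cell that breaches the basement membrane to start the link of uterus and vulva. The comparison was with 3 libraries of whole-body cells. Each library came from a synchronized wild-type population of mid L3 larvae grown at 20 °C on NA22 bacteria, taken at the stage when P6.p, the precursor of the central vulval cells, is present as 2 cells. All cells were freed with pronase E and passed through a 5 μm filter. Whole-body cells are a mixture of the cells so freed and filtered, so a lower value in anchor cells is a value against that mixture.

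The V-ATPase is a rotary pump that uses ATP to move protons into lysosomes, endosomes and, in some cells, across the plasma membrane. Its V1 sector faces the cytoplasm and splits ATP, and its V0 sector sits in the membrane and carries the protons. Aspartic proteases of the cathepsin D kind and cysteine proteases of the cathepsin B, L and Z kinds cut proteins in the acid lumen. In Caenorhabditis elegans the intestine is known as a rich source of such proteases, and the pump is also known from the epidermis and the excretory canal.

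Gene counts totalled 23279623 to 37501816 a library. Anchor cell libraries had 18.4% to 42.9% of these on nuclear rRNA and 22.9% to 48.1% on mitochondrially encoded genes, against 32.1% to 54.3% and 4.68% to 7.17% in whole-body libraries. Levels below are CPM, counts brought to a common library size, after TMM scaling, which allows for such skewed make-up. Genes with any counts numbered 16990, 11508 and 11073 in anchor cell replicates 1, 2 and 3. In whole-body replicates 1, 2 and 3 they numbered 21246, 22216 and 17185. Of 10 anchor cell marker genes, 7 rose in anchor cells, against 2.01% of all tested genes. The 10 summed to 1434 to 3244 CPM there and 402 to 647 CPM in whole-body libraries. The others did not pass. Their log2 fold changes, anchor cell over whole body with SE, were 1.73 ± 0.57 for lin-3, 0.61 ± 1.28 for zmp-1 and -0.72 ± 0.43 for him-4. Nothing in the labels says whether libraries of a group came from separate cultures, so p-values measure only the spread between these libraries.

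Anchor cell libraries held far more pump RNA for each unit of protease RNA than whole-body libraries did. The ratio of summed pump counts to summed protease counts was 13.6, 6.20 and 12.3 in anchor cell replicates 1, 2 and 3, against 3.35, 2.86 and 2.65 in whole-body replicates 1, 2 and 3. The lowest anchor cell ratio, in replicate 2, lay above every whole-body ratio, so the groups did not overlap. On the log2 scale the ratio averaged 3.34 ± 0.62 in anchor cells and 1.56 ± 0.17 in whole-body cells (SD, n = 3 each), a difference of 1.79. This ratio lies within a library and does not depend on scaling between libraries, and it is given without a p because the genes were chosen with earlier results known. Taken instead as the median of log2(CPM + 1) over pump genes minus that over protease genes, the values were 4.14, 4.65 and 7.46 in anchor cells and 4.27, 3.45 and 3.70 in whole-body cells. By that measure anchor cell replicate 1 lay inside the whole-body range, while the difference of means, 1.61, kept its direction. That difference leans on the 7.46 of anchor cell replicate 3, which lay well above the other anchor cell values. In that library 10 of 27 proteases had 0 counts, and asp-8 and asp-13, near the middle of the proteases, had 2 counts each. Its protease median is thus close to the floor.

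The protease sums stood further apart between the groups than the pump sums. Pump genes summed to 4264, 5105 and 6682 CPM in anchor cell libraries, against 3029, 6320 and 3205 CPM in whole-body libraries. Those ranges overlapped, with whole-body replicate 2 well above the other 2 whole-body libraries. Protease genes summed to 314, 823 and 541 CPM in anchor cell libraries, against 905, 2209 and 1210 CPM in whole-body libraries. Every anchor cell sum lay below every whole-body sum, and whole-body replicate 2 was again the highest. It had the highest whole-body level of 19 of 21 pump genes and 16 of 18 tested proteases.

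**Figure D1:**
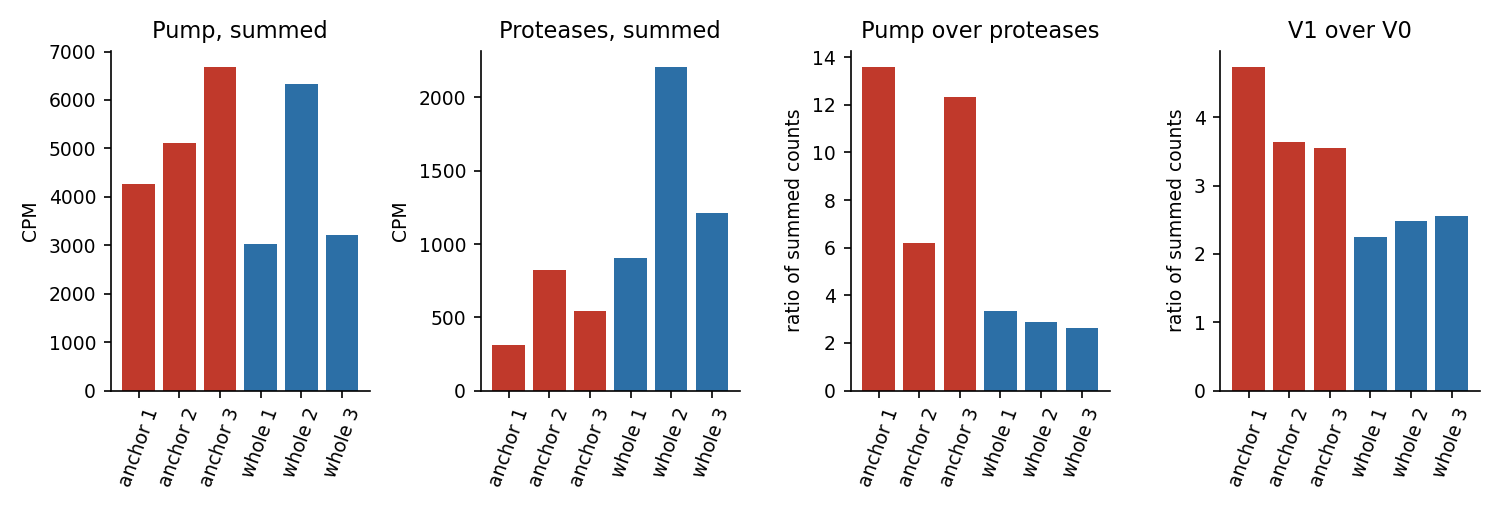
Summed pump level and summed protease level (CPM after TMM scaling), the ratio of summed pump to summed protease counts, and the ratio of V1 to V0 counts, with 1 bar for each library, anchor cells left of whole-body cells. The pump to protease ratio is 6.20 to 13.6 in the anchor cell libraries and 2.65 to 3.35 in the whole-body ones, and protease sums do not overlap between the groups.

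The gap was larger against aspartic than against cysteine proteases. Pump over aspartic protease counts gave ratios of 16.6, 7.95 and 16.2 in anchor cells, against 3.91, 3.296 and 2.94 in whole-body cells. Pump over cysteine protease counts gave 75.1, 28.3 and 51.4 in anchor cells, against 23.2, 21.7 and 27.1 in whole-body cells. Neither pair of ranges overlapped, although anchor cell replicate 2 came close to whole-body replicate 3 for the cysteine proteases. The ratio of aspartic to cysteine protease counts was 4.53, 3.56 and 3.16 in anchor cells and 5.94, 6.59 and 9.25 in whole-body cells, so the protease make-up itself also did not overlap. Pump over lysosomal membrane protein counts was 47.3, 73.6 and 48.4 in anchor cells, against 23.2, 23.2 and 17.97 in whole-body cells. Protease over membrane protein counts overlapped, at 3.48, 11.9 and 3.92 in anchor cells and 6.93, 8.12 and 6.78 in whole-body cells.

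No single member passed the test across all genes. By edgeR's quasi-likelihood test with Benjamini-Hochberg adjustment, 0 of 43 tested members rose and 0 fell in anchor cells, against 2.01% and 1.05% of the 11955 genes tested. At an unadjusted p under 0.05, 2 of 21 pump genes were higher and 1 was lower, and 0 of 18 proteases were higher and 6 were lower. The same p was reached by 11.2% of all tested genes on the higher side and by 13.2% on the lower side. DESeq2 called spe-5 and asp-10 as fallen, where it called 10.6% of all genes as fallen. Limma voom called spe-5, asp-12, cpr-3 and lmp-2 as fallen, where it called 9.02%, and voom with sample weights called spe-5, asp-12 and lmp-2, where it called 11.4%. These 3 tests called 0 members as risen, where they called 5.37%, 3.26% and 5.55% of all genes as risen. Within edgeR, asp-2, asp-5 and asp-10 fell with libraries scaled by their totals, where 3.11% of all genes fell. With no filter asp-5, asp-6 and asp-10 fell, where 1.39% of all genes fell, and with a filter of 10 CPM in 3 libraries asp-5 fell, where 4.22% did.

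As a description of the edgeR fit after filtering, pump genes were spread around the bulk of genes and proteases lay below it. The median log2 fold change, anchor cell over whole body, was 0.05 over the 21 pump genes, -1.201 over the 18 tested proteases and -1.16 over the 4 membrane proteins. The median over all tested genes was -0.12. Values above 0 were found for 11 of 21 pump genes and 1 of 18 proteases, against 46.8% of all tested genes. All 3 anchor cell libraries lay below all 3 whole-body libraries for 9 of 18 proteases, 3 of 4 membrane proteins and 2 of 21 pump genes, against 23.2% of all tested genes. All 3 lay above for 1 pump gene and 0 proteases, against 12.4%. Of all tested genes, 642, 1994 and 2338 had 0 counts in anchor cell replicates 1, 2 and 3. In whole-body replicates 1, 2 and 3 it was 35, 12 and 234 genes. Of the members lower without overlap, spe-5, asp-12, cpr-3 and lmp-2 had 0 counts in at least 1 anchor cell library. The part of such missing counts in their values was not tested.

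Scaling moved the whole distribution more than it moved the gap between pump and proteases. With libraries scaled by their totals, the median over all genes was -0.94, that over pump genes -0.90 and that over proteases -2.18. With both scalings the pump median stayed near that of all genes. The difference between pump and protease medians was 1.25 with TMM scaling and 1.28 with totals. Where both stood against the bulk of genes depended on method and filter. Medians over pump genes, proteases and all genes were 0.08, -1.18 and -0.51 with DESeq2, and 0.06, -1.83 and -0.76 with voom. With no filter they were -0.03, -1.47 and -1.21, so proteases were then nearer to all genes than pump genes were. The gap between pump and proteases was also present among members with more counts. Among genes with a mean over all libraries of at least 10 CPM, the median was 0.15 over 18 pump genes and -1.30 over 12 proteases, against 0.41 over all such genes. Of those pump genes 11 had values above 0, against 62.0% of such genes, 2 were higher at an unadjusted p under 0.05 and 1 was higher without overlap, each against 23.9%. Of those proteases 6 were lower at an unadjusted p under 0.05, against 9.01%. All 12 of those proteases had values below 0, against 38.0% of such genes, and 7 of them lay below every whole-body library without overlap, against 13.8%.

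**Figure D2:**
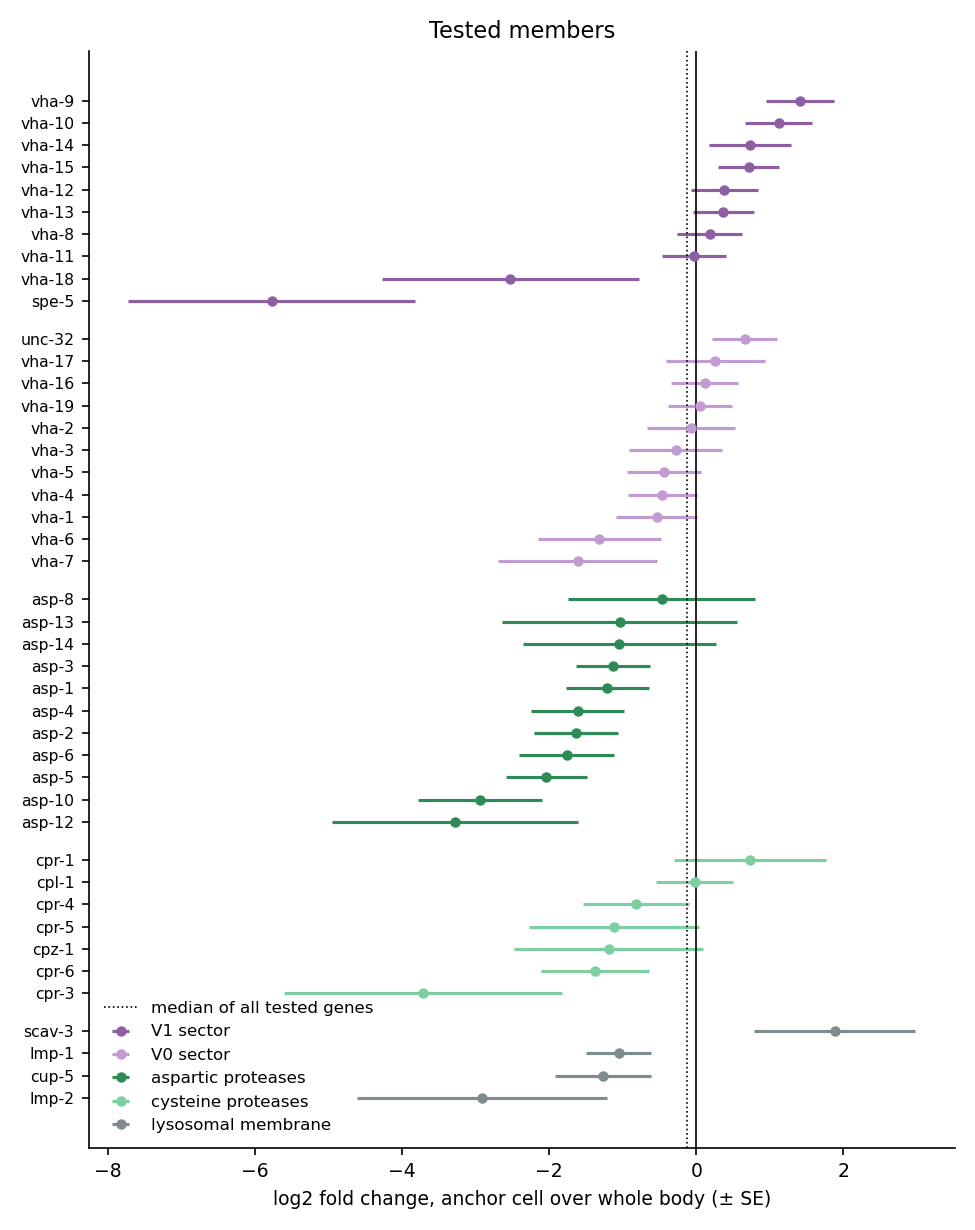
Log2 fold change, anchor cell over whole body, with its SE for each of the 43 tested members, grouped by class, and a dotted line at the median of all tested genes, -0.12. Pump subunits lie on both sides of the line, while 17 of 18 proteases lie below 0 and none of the 43 passes an adjusted p of 0.05.

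Within the pump, V1 genes took a larger part of the counts in anchor cells than in whole-body cells. V1 genes summed to 3520, 4004 and 5216 CPM in anchor cells, against 2097, 4505 and 2305 CPM in whole-body cells, and V0 genes summed to 743, 1101 and 1466 CPM, against 932, 1815 and 900.2 CPM. Both pairs of ranges overlapped. The ratio of V1 to V0 counts was 4.74, 3.64 and 3.56 in anchor cells and 2.25, 2.48 and 2.56 in whole-body cells, without overlap. The median log2 fold change was 0.37 over the 10 V1 genes, of which 7 were above 0, and -0.28 over the 11 V0 genes, of which 4 were above 0. With library totals, which lowered the median of all genes as well, the values of unc-32, vha-12 and vha-15 and the pump median were below 0.

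The V1 genes that were higher in anchor cells at an unadjusted p under 0.05 encode small subunits of the rotor shaft and the peripheral stalk. Subunit F, encoded by vha-9 (chromosome II, 10303050 to 10303713, build WBcel235), had 96.0, 181 and 193 CPM in anchor cells, against 36.0, 72.7 and 68.1 CPM in whole-body cells. Every anchor cell library was above every whole-body library, the lowest in replicate 1. The log2 fold change was 1.41 ± 0.46 (SE), with an adjusted p of 0.0936 by edgeR's quasi-likelihood test. Subunit G, encoded by vha-10 (chromosome I, 5609341 to 5610270), had 594, 1056 and 1524 CPM in anchor cells, against 339, 664 and 461 CPM in whole-body cells. Anchor cell replicates 2 and 3 lay above all whole-body libraries and replicate 1 lay inside their range. Its log2 fold change was 1.12 ± 0.46, with an adjusted p of 0.167 by the same test. Without anchor cell replicate 1 both genes rose, as did 7.28% of all genes, and spe-5, asp-4, asp-12, asp-14 and lmp-2 fell, as did 8.71%. Per kilobase of exon, vha-10 had the highest level of the pump genes in both groups, averaging 1643 ± 722 CPM in anchor cells and 758 ± 255 CPM in whole-body cells, as mean ± SD of 3 libraries.

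The subunits of the catalytic head lay closer to the whole-body level. Subunit B, which forms the head together with subunit A, is encoded by vha-12 and by spe-5, a form known from sperm development. Gene vha-12 had 843, 631 and 974 CPM in anchor cells, against 412, 1039.6 and 432 CPM in whole-body cells. The ranges overlapped through whole-body replicate 2, and the log2 fold change was 0.38 ± 0.46. Subunit A, encoded by vha-13, had 489, 578 and 768 CPM in anchor cells, against 365, 698 and 360.3 CPM in whole-body cells. Its ranges overlapped in the same way, at a log2 fold change of 0.37 ± 0.41. Of the V1 subunits C, D and E, vha-11 differed by -0.03 ± 0.44, vha-14 by 0.73 ± 0.55 and vha-8 by 0.18 ± 0.44 on the log2 scale.

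The V1 subunits with more than 1 gene kept their main gene in both groups. The main gene for subunit H, a regulator that holds V1 on the membrane, is vha-15, with 571, 443 and 408 CPM in anchor cells, against 199, 434 and 237 CPM in whole-body cells. Only whole-body replicate 2 reached into the anchor cell range, and the log2 fold change was 0.71 ± 0.41. The other H gene, vha-18, had 15 counts in anchor cells and 213 in whole-body cells and made up 0% to 0.193% of the H level per length in anchor cells, against 0.249% to 1.18% in whole-body cells. For subunit B, spe-5 had 4, 0 and 0 counts in anchor cell replicates 1, 2 and 3 and a level of 0.159, 0 and 0 CPM, against 1.31, 0.837 and 7.63 CPM in whole-body cells. It lay below every whole-body library. Its fitted log2 fold change of -5.77 ± 1.95 depends on the prior count of the fit, and its adjusted p was 0.103 by edgeR's quasi-likelihood test. Of 8 germ line marker genes, 7 were also lower without overlap, against 23.2% of all tested genes. These 7 summed to 13.4 to 28.5 CPM in the anchor cell libraries and 215 to 305 CPM in the whole-body ones. The other marker, pie-1, was higher without overlap, at 19.8, 59.1 and 48.2 CPM in anchor cells, against 4.43, 5.13 and 12.2 CPM in whole-body cells. The part of germ line RNA in the spe-5 value was not tested. In bulk RNA, fewer cells of a type and less RNA per cell cannot be told apart.

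**Figure D3:**
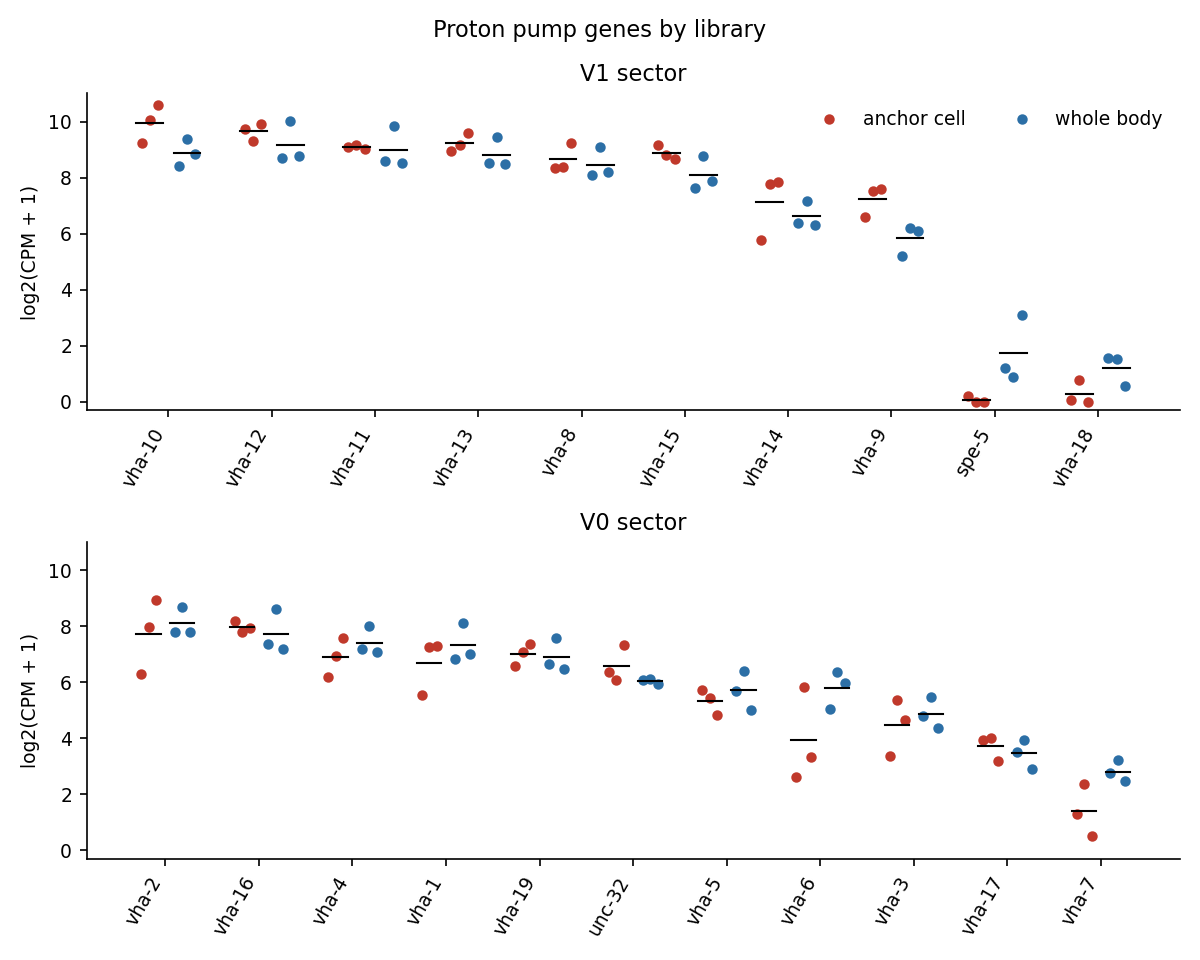
Level of each of the 21 pump genes in each library, as log2(CPM + 1) after TMM scaling, for V1 and V0 genes ordered by mean level. Dots are libraries, anchor cells left of whole-body cells for each gene, and the black line is the mean of the log values; vha-9 is the gene whose anchor cell dots all lie above its whole-body dots.

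The V0 sector holds subunit a, which lines the proton path and sets where the pump goes, and a ring of c subunits that turns with the rotor. Of the 4 genes for subunit a, unc-32 (chromosome III, 8905615 to 8911756), best known from neurons, had 82.1, 66.5 and 159 CPM in anchor cells, against 66.7, 68.6 and 59.8 CPM in whole-body cells. Anchor cell replicates 1 and 3 were above all whole-body libraries and replicate 2 was inside their range, at a log2 fold change of 0.66 ± 0.45. Neuron marker genes, 8 in all, summed to 665 to 1270.5 CPM in the anchor cell libraries and 336 to 531 CPM in the whole-body ones. All 8 had values above 0, against 46.8% of all tested genes, with a median log2 fold change of 1.41. Of these, 4 were higher without overlap, against 12.4% of all tested genes, and 0 of 8 passed the edgeR test. Their part in the unc-32 value was not tested.

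The other subunit a genes were at or below the whole-body level. The epidermal and excretory canal form, vha-5, had 51.6, 42.9 and 27.8 CPM in anchor cells, against 50.8, 83.7 and 31.5 CPM in whole-body cells. Its ranges overlapped, at a log2 fold change of -0.44 ± 0.51. The form of the apical intestinal membrane, vha-6 (chromosome II, 11435210 to 11438452), had 5.14, 56.3 and 9.05 CPM in anchor cells, against 32.1, 82.1 and 61.7 CPM in whole-body cells. Anchor cell replicates 1 and 3 were below every whole-body library, and replicate 2 was inside their range. The log2 fold change was -1.32 ± 0.84, with an adjusted p of 0.381 by edgeR's quasi-likelihood test. The fourth form, vha-7, was low in all 6 libraries, with 1.47, 4.14 and 0.433 CPM in anchor cells, against 5.76, 8.26 and 4.52 CPM in whole-body cells. The groups did not overlap, at a log2 fold change of -1.62 ± 1.09 and an adjusted p of 0.410 by the same test.

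Shares of the subunit a level, each gene per kilobase of exon, were taken within each library. The unc-32 share was 53.5%, 33.5% and 77.3% in anchor cells, against 37.6%, 23.7% and 32.2% in whole-body cells. The vha-6 share was 4.50%, 38.1% and 5.92% in anchor cells, against 24.3%, 38.2% and 44.7% in whole-body cells. Anchor cell replicate 2 resembled the whole-body libraries in both shares, and both pairs of ranges overlapped. The vha-5 share was 16.5% to 41.1% in the anchor cell libraries and 20.8% to 35.4% in the whole-body ones. The vha-7 share was 0.196% to 1.94% in the anchor cell libraries and 2.27% to 3.02% in the whole-body ones.

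**Figure D4:**
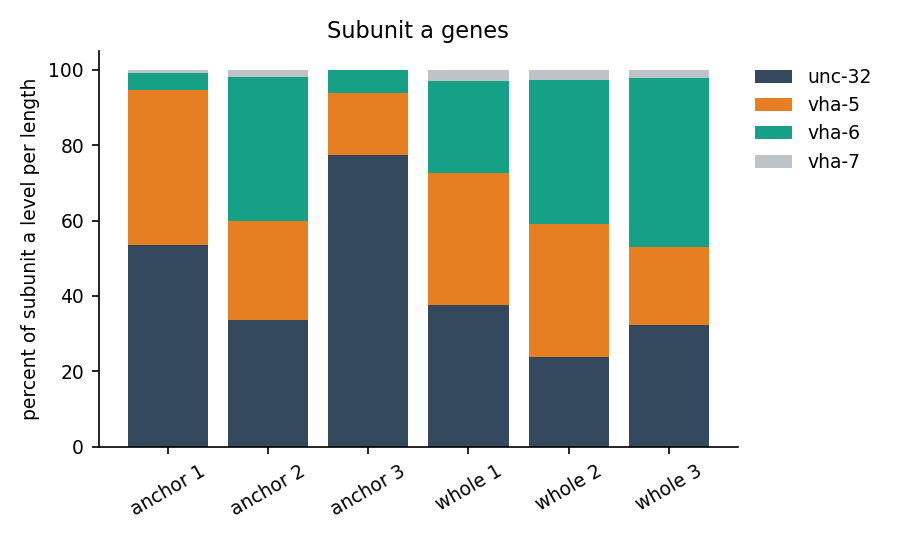
Share of each of the 4 subunit a genes in the summed subunit a level, in percent, after dividing each gene's level by its exon length, with 1 stacked bar for each library and anchor cells left of whole-body cells. The unc-32 share is 33.5% to 77.3% in the anchor cell libraries and 23.7% to 37.6% in the whole-body ones, and the vha-6 share is 4.50% and 5.92% in anchor cell replicates 1 and 3.

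The membrane ring was near or below the whole-body level. Of the c subunit genes, vha-2 had 77.7, 249 and 486 CPM in anchor cells, against 223, 411 and 221 CPM in whole-body cells. Anchor cell replicate 1 was the lowest of all 6 libraries and replicate 3 the highest, and the log2 fold change of -0.08 ± 0.60 turned to 0.37 without anchor cell replicate 1. Gene vha-1 had 45.8, 154 and 155 CPM in anchor cells, against 112, 274 and 128 CPM in whole-body cells. Its ranges overlapped, at a log2 fold change of -0.54 ± 0.55, and vha-3 differed by -0.28 ± 0.63. Genes vha-1 and vha-2 lie 400 bases apart on chromosome III, and the c subunit genes are close copies, so counts may be split between them. An exon of R10E11.6 also covers 219 bases of vha-2 on the same strand. The larger ring subunit, encoded by vha-4, had 71.3, 121.5 and 192 CPM in anchor cells, against 143, 253 and 134 CPM in whole-body cells, with overlap and a log2 fold change of -0.46 ± 0.47. The remaining V0 genes, vha-16 for subunit d, vha-17 for subunit e and vha-19 for an accessory subunit, differed by 0.12, 0.26 and 0.05 on the log2 scale, with SEs of 0.44 to 0.68. The second accessory subunit, vha-20, stands in the files as R03E1.2 and so is no member, and it differed by 0.31 ± 0.55.

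Proteases were lower in anchor cells across most of the aspartic class. All 11 tested asp- genes had log2 fold changes below 0, between -3.28 and -0.47, with a median of -1.61. The 8 others did not pass the filter on low counts: asp-16, asp-18 and asp-19 had 0 counts in all 6 libraries, which allows up to 3 counts in each, or 0.0483 to 0.153 CPM. Genes asp-7, asp-9, asp-11 and asp-15 had 1, 19, 29 and 2 counts, all in whole-body libraries, and asp-17 had 1 count in anchor cells and 5 in whole-body cells. The annotation lists asp-11 as a pseudogene, and asp-10 has no entry in it under that name.

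The highest aspartic protease level came from a gene known for the intestine. Gene asp-1 (chromosome V, 19049562 to 19050752) had 60.1, 243 and 247 CPM in anchor cells, against 279, 624 and 371 CPM in whole-body cells. Every anchor cell library lay below every whole-body library, although replicates 2 and 3 came close to whole-body replicate 1. The log2 fold change was -1.21 ± 0.56, with an adjusted p of 0.224 by edgeR's quasi-likelihood test. Per kilobase of exon it averaged 154 ± 89.8 CPM in anchor cells and 357 ± 149.8 CPM in whole-body cells, the highest level of the proteases in both groups. Gene asp-6 (chromosome V, 8267511 to 8268937), next by that measure, had 53.0, 185 and 36.5 CPM in anchor cells, against 194, 482 and 254 CPM in whole-body cells. Anchor cell replicate 2 was just under the lowest whole-body library, and the other 2 were far below it. Its log2 fold change was -1.76 ± 0.64, with an adjusted p of 0.124 by the same test.

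The smallest p-values among proteases belonged to asp-5 and asp-10. Gene asp-5 (chromosome V, 8272385 to 8274044) had 21.5, 57.9 and 35.5 CPM in anchor cells, against 72.3, 201 and 200.1 CPM in whole-body cells. The groups did not overlap, at a log2 fold change of -2.04 ± 0.55 and an adjusted p of 0.0682 by edgeR's quasi-likelihood test. Gene asp-10 had 5.22, 21.5 and 5.10 CPM in anchor cells, against 52.2, 166 and 26.5 CPM in whole-body cells. Anchor cell replicate 2 came near whole-body replicate 3 but the groups did not overlap, at a log2 fold change of -2.94 ± 0.84 and an adjusted p of 0.0692 by the same test. Gene asp-2 had 20.9, 61.3 and 22.8 CPM in anchor cells, against 65.2, 165 and 97.6 CPM in whole-body cells. Its groups also stood apart, at a log2 fold change of -1.64 ± 0.57 and an adjusted p of 0.110.

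Genes asp-3 and asp-4, aspartic proteases known for their part in necrotic death of neurons, were lower as well. Gene asp-3 had 42.4, 56.1 and 58.4 CPM in anchor cells, against 63.0, 197 and 83.6 CPM in whole-body cells. Gene asp-4 had 10.7, 5.17 and 5.49 CPM in anchor cells, against 23.7, 17.7 and 24.0 CPM in whole-body cells. Neither gene's groups overlapped, although anchor cell replicate 3 came close to whole-body replicate 1 for asp-3. Log2 fold changes were -1.13 ± 0.50 and -1.61 ± 0.64, with adjusted p-values of 0.201 and 0.150 by edgeR's quasi-likelihood test. The other tested genes, asp-8, asp-12, asp-13 and asp-14, differed by -0.47, -3.28, -1.04 and -1.05 on the log2 scale, with SEs of 1.27 to 1.67. The asp-12 value rests on 2.11, 0 and 0.0482 CPM in anchor cells, against 2.74, 8.17 and 10.3 CPM in whole-body cells, which did not overlap.

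**Figure D5:**
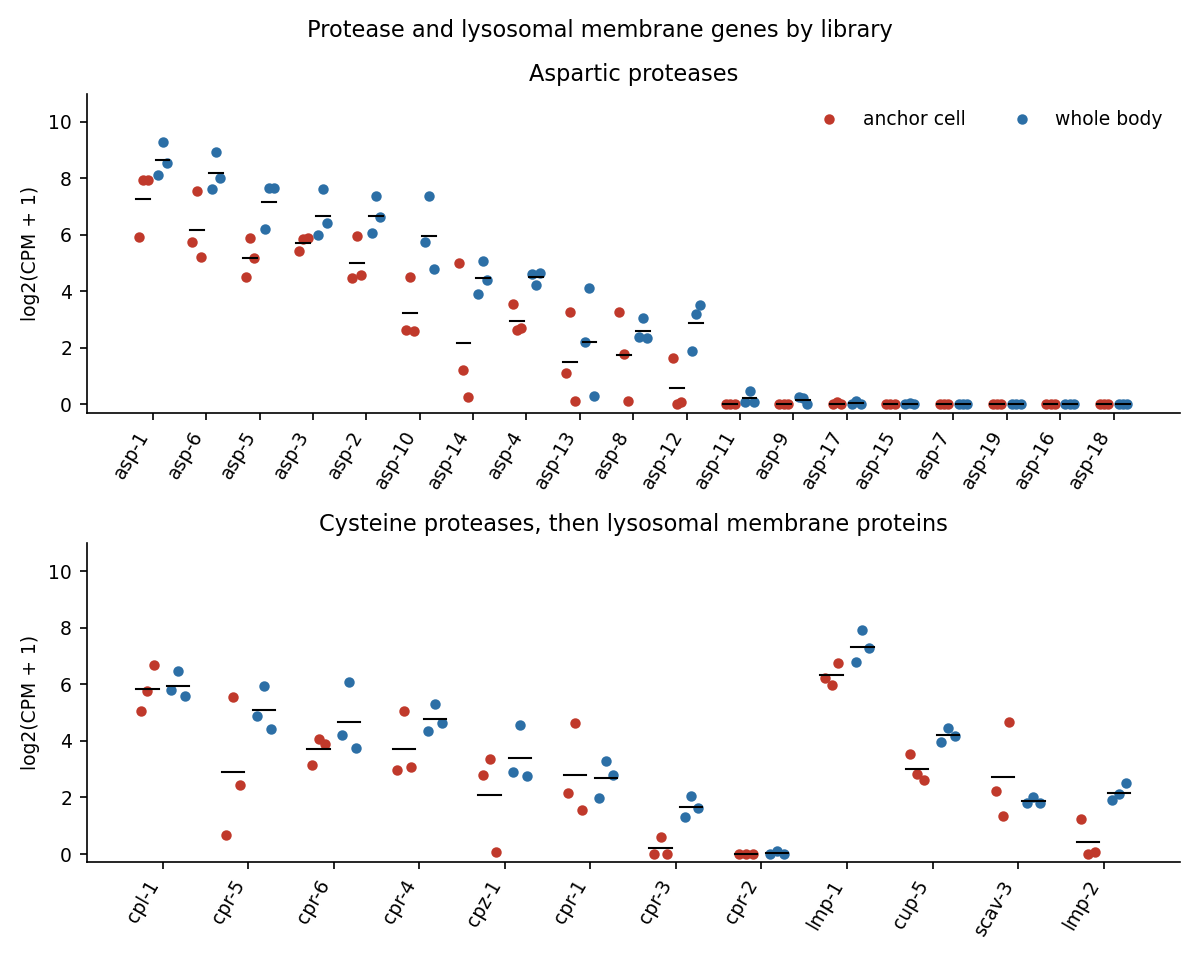
Level of each protease and lysosomal membrane protein gene in each library, as log2(CPM + 1) after TMM scaling, ordered by mean level within aspartic proteases, cysteine proteases and membrane proteins. Dots are libraries, anchor cells left of whole-body cells, and the black line is the mean of the log values; for asp-1, asp-6 and asp-5 every anchor cell dot lies below every whole-body dot.

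Cysteine proteases were less uniform. Cathepsin L, cpl-1, known to be needed in embryos and for yolk processing, had 32.1, 53.8 and 102 CPM in anchor cells, against 54.3, 89.0 and 47.5 CPM in whole-body cells. The ranges overlapped widely, and the log2 fold change of -0.02 ± 0.52 changed sign with several alternatives. Per kilobase of exon cpl-1 averaged 52.7 ± 30.2 CPM in anchor cells and 53.4 ± 18.7 CPM in whole-body cells, as mean ± SD of 3 libraries.

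The cathepsin B-like genes were mostly lower and depended on the library. Gene cpr-6 had 7.80, 15.8 and 13.9 CPM in anchor cells, against 17.6, 67.7 and 12.3 CPM in whole-body cells. Gene cpr-4 had 6.89, 32.02 and 7.42 CPM in anchor cells, against 19.5, 38.6 and 23.7 CPM in whole-body cells. Both overlapped between the groups, cpr-4 through anchor cell replicate 2 alone. Log2 fold changes were -1.38 ± 0.73 for cpr-6 and -0.82 ± 0.72 for cpr-4. Gene cpr-5 had 0.597, 45.6 and 4.43 CPM in anchor cells, against 28.3, 61.0 and 20.7 CPM in whole-body cells. Anchor cell replicate 2 again lay inside the whole-body range and the other 2 below it, at a log2 fold change of -1.12 ± 1.16.

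Gene cpr-1 was the only tested protease with a value above 0, at 3.46, 23.6 and 1.97 CPM in anchor cells, against 2.91, 8.72 and 5.90 CPM in whole-body cells. That value, 0.73 ± 1.03 on the log2 scale, has a wide SE, with anchor cell replicate 2 above, replicate 1 inside and replicate 3 below the whole-body range. Gene cpr-3 had 0, 0.512 and 0 CPM in anchor cells, from 10 counts, against 1.48, 3.19 and 2.09 CPM in whole-body cells. Its groups did not overlap, and its fitted log2 fold change of -3.72 ± 1.88 depends on the prior count. Cathepsin Z, cpz-1, differed by -1.19 ± 1.28, and cpr-2, with 5 counts in whole-body libraries and 0 in anchor cells, was not tested.

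Anchor cell replicate 2 had the highest anchor cell level of 11 of 18 tested proteases and of 6 of 21 pump genes. It also had the highest anchor cell level of 7 of 12 intestinal marker genes. The 12 markers summed to 57.7, 305.0 and 306 CPM in anchor cells, against 234, 383 and 353 CPM in whole-body cells, and 2, 1 and 4 of them were at 0 in anchor cell libraries, against 1, 3 and 2 in whole-body libraries. The intestinal actin act-5 made up most of those sums, and without it they were 25.1, 101.1 and 46.9 CPM in anchor cells, against 58.2, 128 and 134 CPM in whole-body cells. The gut transcription factor elt-2 had 0.119, 14.5 and 13.1 CPM in anchor cells, against 6.68, 10.9 and 2.62 CPM in whole-body cells, and the peptide transporter pept-1 had 5.42, 24.0 and 4.33 CPM, against 19.4, 55.2 and 20.9 CPM. Like vha-6, cpr-4 and cpr-5, pept-1 was highest among anchor cells in replicate 2, whereas elt-2 was at similar levels in replicates 2 and 3. By edgeR, 0 of 9 tested intestinal markers passed, with a median log2 fold change of -1.19. The part of intestinal RNA in the protease values was not tested. Epidermal markers, 10 genes, summed to 844, 2364 and 6363 CPM in anchor cells, against 515, 1117 and 300.5 CPM in whole-body cells. The collagen sqt-3 carried most of that sum in anchor cell replicates 2 and 3, and without it the levels were 648, 877 and 1492 CPM in anchor cells, against 296, 525 and 256 CPM in whole-body cells. By edgeR 0 of the 10 passed, with a median log2 fold change of 1.07. Values were above 0 for 6 of them, bli-1 and lin-26 without overlap at 4.46 ± 1.06 and 1.61 ± 0.40. The other 4 had values below 0, elt-1 without overlap at -2.25 ± 0.79. Without overlap, 12.4% of all tested genes were higher and 23.2% lower. The part of epidermal RNA in the pump values was not tested.

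Muscle and germ line markers were lower in anchor cells together with the proteases. The 6 muscle markers summed to 3558, 2618 and 3130 CPM in anchor cells, against 11691, 7941 and 10928 CPM in whole-body cells. All 6 were lower without overlap, against 23.2% of all tested genes, with a median log2 fold change of -1.77. By edgeR 1 of them fell, against 1.05% of all tested genes. Of the 8 germ line markers, 7 were lower without overlap and 1 fell by edgeR, against the same shares of all tested genes. The part of these tissues in the protease values was not tested. The 6 excretory cell markers summed to 134, 1088 and 1315 CPM in anchor cells, against 66.5, 74.1 and 59.3 CPM in whole-body cells. Gene exc-9 made up most of the anchor cell sums, at 109, 1071 and 1249 CPM, against 25.1, 26.4 and 30.8 CPM. It was the 1 marker of 5 tested that rose by edgeR, where 2.01% of all tested genes rose. Of all tested genes, 12.4% were higher and 23.2% lower without overlap. Of the 5 excretory markers, 3 had values above 0, exc-9 without overlap, and 2 below, these 2 without overlap. The canal water channel aqp-8, 1 of these 2, was at 0.119 to 1.35 CPM and 7.95 to 12.2 CPM. The 3 coelomocyte markers, from scavenger cells rich in lysosomes, summed to 10.6, 2.66 and 0.0963 CPM in anchor cells, against 20.9, 6.21 and 6.998 CPM in whole-body cells.

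Membrane proteins of the lysosome followed the proteases more than the pump. The LAMP-like glycoprotein lmp-1 (chromosome X, 6376459 to 6377684) made up 78.7% to 88.9% of the counts of this class in anchor cells and 84.8% to 89.9% among whole-body libraries. It had 74.7, 61.7 and 109 CPM in anchor cells, against 111, 244 and 154 CPM in whole-body cells. The groups did not overlap, although anchor cell replicate 3 and whole-body replicate 1 were almost level, at a log2 fold change of -1.06 ± 0.44 and an adjusted p of 0.174 by edgeR's quasi-likelihood test. The calcium channel cup-5, a mucolipin, had 10.6, 6.14 and 5.10 CPM in anchor cells, against 14.6, 21.1 and 17.001 CPM in whole-body cells. It too did not overlap, at -1.27 ± 0.65. Gene lmp-2 had 1.35, 0 and 0.0482 CPM in anchor cells, against 2.76, 3.32 and 4.67 CPM in whole-body cells, also without overlap. The LIMP-2-like gene scav-3 had 3.66, 1.53 and 24.3 CPM in anchor cells, against 2.49, 3.03 and 2.47 CPM in whole-body cells. Its log2 fold change of 1.88 ± 1.098 came from anchor cell replicate 3 and was -0.04 without it.

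The groups of genes also differ in where they lie. The choice by symbol took whole gene families, and family members that lie side by side are counted separately here. Of 25 protease members annotated as protein-coding, 19 lie on chromosome V, or 76.0%, against 25.2% of the 19504 protein-coding rows. Pump genes are spread over chromosomes I, II, III, IV, V and X, with 3, 3, 4, 7, 2 and 2 of them. On chromosome V, asp-6, asp-12, asp-5 and asp-11 follow each other at distances of 272, 328 and 308 bases. Within that run the levels differ widely: asp-6 and asp-5 were among the most abundant proteases, asp-12 reached at most 10.3 CPM, and asp-11 had 29 counts. Genes asp-15 and asp-16, and likewise asp-18 and asp-19, are pairs 609 and 799 bases apart that were at or near 0. On chromosome IV, vha-11 and vha-3 lie 892 bases apart. Their log2 fold changes were -0.03 and -0.28.

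Other lysosomal hydrolases were set beside the proteases as a wider list of 42 genes, of which 37 were tested. By edgeR, 3 fell and 0 rose in anchor cells, against 1.05% and 2.01% of all tested genes. Values below 0 were found for 29 of 37, against 53.2% of all tested genes, and the median log2 fold change was -1.07. The carboxypeptidase ctsa-1.1, listed as F41C3.5, fell to 39.5, 35.7 and 27.2 CPM in anchor cells, against 248, 254 and 302 CPM in whole-body cells. All anchor cell libraries were far below all whole-body libraries, and the log2 fold change was -2.98 ± 0.40 with an adjusted p of 0.00673 by edgeR's quasi-likelihood test. It was called with all 16 alternatives, at adjusted p-values of 1.61e-06 to 0.0484. The acid alpha-glucosidase-related gene aagr-2 had 16.1, 13.6 and 8.04 CPM in anchor cells, against 63.4, 124 and 96.5 CPM in whole-body cells. It fell by 2.91 ± 0.51 on the log2 scale, with an adjusted p of 0.0200 by the same test. The call was lost without anchor cell replicate 2, at an adjusted p of 0.0598, and without whole-body replicates 2 and 3, at 0.0735 and 0.0944. The prolyl carboxypeptidase-like gene pcp-2 had 2.47, 0.921 and 0.385 CPM in anchor cells, against 19.9, 51.7 and 39.02 CPM in whole-body cells. It fell by 4.86 ± 0.87 on the log2 scale, with an adjusted p of 0.0221, and that call was lost without the same 3 libraries, at 0.0694, 0.0636 and 0.0919, and with voom and sample weights, at 0.0700.

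Genes that bring material to the lysosome were mixed in direction. Of 18 tested delivery genes, 0 passed by edgeR, and 12 had values above 0, against 46.8% of all tested genes. Their median log2 fold change was 0.37, against -0.12 over all tested genes. It was 0.41 over all genes with a mean of at least 10 CPM, a level that some delivery genes, such as vps-33.1, did not reach. The small GTPase rab-7, which marks late endosomes and lysosomes, had 93.4, 118 and 197 CPM in anchor cells, against 33.6, 53.5 and 52.5 CPM in whole-body cells. All anchor cell libraries were higher, at a log2 fold change of 1.55 ± 0.45 and an adjusted p of 0.0713 by edgeR's quasi-likelihood test. Of 8 lysosome regulators, 1 rose and 0 fell, against 2.01% and 1.05% of all tested genes, with a median of 0.59. That gene, lmtr-3, listed as C06H2.6, encodes a part of the Ragulator complex that anchors Rag GTPases at the lysosome. It had 33.5, 56.6 and 65.7 CPM in anchor cells, against 8.38, 10.9 and 6.93 CPM in whole-body cells, and its groups stood well apart. It rose by 2.57 ± 0.54 on the log2 scale, with an adjusted p of 0.0342 by the same test. The call was lost with library totals and without any library other than anchor cell replicate 1, at adjusted p-values of 0.0518 to 0.172.

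Both listed inhibitors of cysteine proteases had values above 0, with overlapping groups, and neither passed the test. The cystatin cpi-2, which blocks cathepsin B-like and L-like enzymes, had 14.7, 60.9 and 119.9 CPM in anchor cells, against 10.2, 11.4 and 16.9 CPM in whole-body cells. Anchor cell replicates 2 and 3 were above every whole-body library and replicate 1 was inside their range. Its log2 fold change was 2.34 ± 0.72, with an adjusted p of 0.0798 by edgeR's quasi-likelihood test. The related gene cpi-1 was at 0.256 to 5.42 CPM in the anchor cell libraries and 0.595 to 0.799 CPM in the whole-body ones. Its log2 fold change was 1.84 ± 1.40, with an adjusted p of 0.469 by the same test.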

How the data were processed

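The authors deposited raw counts per gene, 1 table for each of 6 libraries. The values are unnormalized whole numbers, as the file contents show. FastQC, Trim Galore, STAR, HTSeq, R 4.0.2, DESeq2 1.30.1 and build WBcel235 are named per the submitters' processing notes. Not given in the sources used here were the strand setting, annotation release and the way anchor cells were separated. For each sample, 8 to 10 ng of RNA was amplified with the Ovation RNA-Seq System, per the labels' protocols. The 5 summary rows, 1.13% to 4.36% of a library, stayed out of library sizes and tests. Amplified reads can copy the same molecule, so limits from counts cover counting error only.

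TMM factors were 0.674 to 0.889 for the anchor cell libraries and 1.17 to 1.66 for the whole-body libraries, and 3 counts correspond to 0.0483 to 0.153 CPM. Genes were filtered by filterByExpr, which left 11955, and tested with edgeR 4.0.16 in R 4.3.3 by the robust quasi-likelihood F test, with group as the only term. The threshold was an adjusted p of 0.05 over all tested genes. The SE of a log2 fold change is its size divided by the square root of F. Ratios and sums use all members, tested or not. Levels between genes are compared per kilobase of union exon length from Ensembl release 115, which matched 99.0% of gene rows and 51 of 52 members. The step was tested on simulated counts. No library duplicated another.

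The members, the gene lists and the markers were chosen with earlier results of these data known. Values in every library are given for up to 4 tested genes of each class with the smallest p, the 2 with the highest level per length and all 4 subunit a genes. From each other list, genes past the threshold or otherwise the gene with the smallest p are named. Other genes named with values, such as vha-13, asp-3, asp-4, asp-12, cpr-1, elt-2, pept-1, elt-1, pie-1, aqp-8 and cpi-1, were added after their values were seen. Alternatives were upper-quartile, DESeq2 size factor and library-total scaling, DESeq2 1.42.0, limma 3.58.1 voom with and without sample weights, no filter, a filter of 10 CPM in 3 libraries, a replicate block, the removal of rRNA and mitochondrial genes, and each library left out in turn. Members with a mean of at least 10 CPM, the ratio by protease class and by pump sector, the ratio without each library, and marker sums without act-5, sqt-3 or pie-1 were added after the data were seen.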

Additional observations from a re-analysis of the deposited data

How the results depend on the processing

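For all genes, 240 rose and 125 fell. The numbers were 98 and 372 with library totals, 798 and 1580 with DESeq2, 390 and 1078 with voom, 663 and 1368 with voom and sample weights, and 603 and 372 with no filter. With the filter of 10 CPM, 197 fell. Leaving out 1 library gave 31 to 966 rises and 7 to 1156 falls, the most without anchor cell replicate 1. Of pump genes, 0 to 2 rose and 0 to 1 fell without 1 library, and 1 fell with DESeq2, with voom and with voom and sample weights. Of proteases, 3 fell with library totals, 1 with DESeq2, 2 with voom, 1 with voom and sample weights, 3 with no filter, 1 with the filter of 10 CPM and 0 to 3 without 1 library. Without anchor cell replicate 1, vha-9 and vha-10 rose, and spe-5, asp-4, asp-12, asp-14 and lmp-2 fell. Replicate numbers were checked for pairing by the correlation of same-numbered deviations, 0.053, -0.032 and -0.0032. With 3 libraries a group and unlike cell populations, such small values cannot show whether same-numbered libraries share a culture or batch. Pairing is therefore not known. With the replicate block 390 genes rose and 338 fell, and 3 proteases fell (asp-5, asp-6 and asp-10), where 2.83% of all genes fell. The causes were not tested.

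The difference in pump to protease log2 ratio, 1.79, was 1.00 with cysteine proteases alone, 1.26 with V0 genes alone and 1.57 to 2.14 without 1 library. The difference of medians, 1.25, was 1.13 to 1.98 over its alternatives. Over 35 named genes and 16 alternatives, 15 values reversed. With library totals they were unc-32 at -0.22, vha-12 at -0.56, vha-15 at -0.18, vha-20 at -0.64 and rbc-1 at -0.14. Gene cpl-1 was 0.020 with DESeq2 size factors, 0.019 with DESeq2, 0.021 without rRNA and mitochondrial genes, and -0.57 to 0.298 with 1 library left out, above 0 when anchor cell replicate 1, anchor cell replicate 2 or whole-body replicate 2 was dropped. With 1 library left out, vha-2 was -0.81 to 0.37, above 0 when anchor cell replicate 1 or whole-body replicate 2 was dropped. Likewise scav-3 was -0.038 to 2.40 and vha-20 was -0.27 to 0.60, both lowest without anchor cell replicate 3. Low counts limit spe-5, vha-18, cpr-3 and lmp-2, and 3 libraries a group limit every test here.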

Other observations

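Ragulator genes beyond lmtr-3 had higher values in anchor cells than in whole-body cells and were named after their values were seen. Gene lmtr-2 had 2.31, 10.7 and 9.29 CPM in anchor cells, against 0.509, 0.998 and 0.813 CPM in whole-body cells. Gene lmtr-5 had 4.101, 31.1 and 12.95 CPM in anchor cells, against 2.11, 3.48 and 2.33 CPM in whole-body cells. Both groups of libraries stood apart for each gene, but neither passed edgeR's quasi-likelihood test, with adjusted p-values of 0.0975 and 0.108.

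Rabconnectin subunits, which help join V1 to V0, had overlapping ranges in the groups. Gene rbc-1 had 389, 199 and 316 CPM in anchor cells, against 149, 212 and 203 CPM in whole-body cells, at a log2 fold change of 0.68 ± 0.40, and rbc-2 differed by 0.43 ± 0.52. Of 11 tested lysosomal transporters, 0 passed by edgeR and the median log2 fold change was -0.29. The transporter with the smallest p, spin-3, had 0.199, 0 and 0 CPM in anchor cells, against 1.91, 0.982 and 1.34 CPM in whole-body cells.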
